A study of Mus musculus with 3 samples.

Results

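The complement and coagulation proteins are plasma proteins that are made largely by hepatocytes. The 40 genes were chosen by name, from the function of their products, 18 of complement and 22 of coagulation. No rule on measured values was used, but earlier results of these data were known when the list was made. On the array, 33 of them had at least 1 probe set that names no other gene, 12 of complement and 21 of coagulation, among 8251 genes in all. They were read by 42 probe sets, and 9 of the genes had more than 1. C3, C4b, C6, C8a, C8b, Cfd and F11 had no such probe set and were not analysed here, and for C4b the 2 probe sets that name it also name C4a.

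The livers came from male homozygous apoE knockout mice of a C57BL/6JxOLA129 background, which lack the lipoprotein ligand apolipoprotein E in every group, the control group included. Mice aged 3 months received 1 of 3 semi-purified diets for 12 weeks, with 1.0% by weight of linoleic acid in the control diet, or the same amount of c9,t11-CLA or t10,c12-CLA, conjugated isomers of linoleic acid. Fat supplied 30% of the energy of each diet. The diets held 10, 10 and 9 mice, and 1 array per diet was analysed. The sources used here do not say whether an array held RNA of a single mouse or of a pool, and the sample labels call the diet western.

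Complement is a set of plasma proteases and binding proteins that tags and lyses microbes. Its lectin branch starts with mannose-binding lectins and their proteases, its alternative branch with factor B and properdin, and both lead to a terminal complex that opens a pore in the membrane. Coagulation is a cascade of proteases, several of which need vitamin K for their carboxylation. It ends with thrombin cutting fibrinogen to fibrin, which anticoagulants limit and plasmin dissolves. Fibrinogen, plasminogen and several complement components are known to be induced in the liver during the acute phase response.

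The promoters of 5 members that the results below turn on are shown first. They are the 250 bases before the RefSeq transcription start (build GRCm38.p6), printed 5′ to 3′ on the gene's own strand. The fibrinogen chain genes Fga, Fgb and Fgg lie close together on chromosome 3, and all 3 were higher on the c9,t11-CLA array. F13b was more than 2-fold lower after the t10,c12-CLA diet, and C9 had the highest difference of a complement member on the c9,t11-CLA array. Capitals mark matches, on either strand, to any of 6 searched letter patterns.
Fga, chr3:83025903-83026152, plus strand: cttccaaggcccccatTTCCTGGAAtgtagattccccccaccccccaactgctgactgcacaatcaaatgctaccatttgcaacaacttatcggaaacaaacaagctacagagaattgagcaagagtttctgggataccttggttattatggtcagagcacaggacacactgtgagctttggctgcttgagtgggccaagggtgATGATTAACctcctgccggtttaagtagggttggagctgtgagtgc
Fgb, chr3:83049864-83050113, minus strand: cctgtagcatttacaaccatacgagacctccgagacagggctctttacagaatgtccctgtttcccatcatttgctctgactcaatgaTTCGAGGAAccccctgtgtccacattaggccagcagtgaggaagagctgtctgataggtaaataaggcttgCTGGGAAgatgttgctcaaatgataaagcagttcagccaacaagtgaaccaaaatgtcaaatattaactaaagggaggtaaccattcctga
Fgg, chr3:83007474-83007723, plus strand: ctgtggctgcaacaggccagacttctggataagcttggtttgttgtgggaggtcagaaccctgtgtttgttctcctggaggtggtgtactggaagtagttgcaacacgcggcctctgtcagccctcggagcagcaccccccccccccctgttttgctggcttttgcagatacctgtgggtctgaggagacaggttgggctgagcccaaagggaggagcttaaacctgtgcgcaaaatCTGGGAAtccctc
F13b, chr1:139501457-139501706, plus strand: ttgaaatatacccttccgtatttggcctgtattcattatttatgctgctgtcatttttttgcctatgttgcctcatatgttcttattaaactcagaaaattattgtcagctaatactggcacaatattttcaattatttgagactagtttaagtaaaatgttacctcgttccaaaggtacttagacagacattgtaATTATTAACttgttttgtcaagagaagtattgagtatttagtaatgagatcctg
C9, chr15:6445096-6445345, plus strand: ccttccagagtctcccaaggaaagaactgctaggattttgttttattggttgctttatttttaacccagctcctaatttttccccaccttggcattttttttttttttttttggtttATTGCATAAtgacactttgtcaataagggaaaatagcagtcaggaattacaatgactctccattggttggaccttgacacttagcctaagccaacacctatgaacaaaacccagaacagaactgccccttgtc

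The patterns were TTCNNNGAA (STAT3-type), CTGGGAA (IL-6 response element), TTNNGCAAT (C/EBP), GTTAATNAT (HNF1), CAAAGTCCA (HNF4) and CAAAGGTCA (nuclear receptor direct repeat), searched in windows that also held the 50 bases after the start. The promoter table held 24 of the 33 members, in 25 windows. The HNF1 letters, those of a liver-enriched factor, occurred in 5 of the 25 windows (20%, against 0.801% of all 32851 windows in the table), in C4bp, Cfhr2, F13b, Fga and Hc. In Fga they began 46 bases before the start, in F13b 54 and in Hc 77. The STAT3-type letters occurred in 7 windows (28%, against 8.3% of all), including Fga and Fgb but not Fgg. The IL-6 response element letters also occurred in 7 windows (28%, against 11.1%), including Fgb and Fgg but not Fga. The windows of Cfhr2, F9, Fgb, Masp2 and Vtn held both the STAT3-type and the IL-6 letters. These letter patterns overlapped each other in Cfhr2, F9, Masp2 and Vtn, so the counts are not separate. The C/EBP letters occurred in C9 alone (4%, against 2.18%), the nuclear receptor letters in F7 and F9 (8%, against 0.478%), and the HNF4 letters in none of the 25 (0.475% of all). A match describes letters only, and no binding was measured.

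Each value was a MAS5 signal, the hybridisation brightness of a probe set on a linear scale. It can be compared between arrays, but between probe sets it does not compare amounts of RNA. Rankings by brightness and sums of signals below therefore describe probe sets, and the brightest weigh most in a sum. A gene with several probe sets was read by its brightest. Signals up to a floor of 490.3, the pooled median of all signals, were treated as not measured. On all 3 arrays 27 members lay above the floor. On some but not all arrays 3 did, Cfb, F8 and Vwf, and the same number lay below it on every array, F3, Tfpi and Thbd. The 3 arrays had a 2%-trimmed mean of 1501 each, a median signal of 457 to 524 and 6074 to 6443 of 12488 probe sets above the floor. With 1 array per diet no difference has a replicate error or a p-value, and the number of arrays limits every statement. As a yardstick, the log2 differences read by 2 probe sets of a gene gave a standard deviation of 0.49, 0.40 and 0.49 per single difference, in the comparisons of c9,t11-CLA with control, t10,c12-CLA with control and t10,c12-CLA with c9,t11-CLA. It rests on 529, 566 and 553 genes and leaves out the variation between mice.

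**Figure D1:**
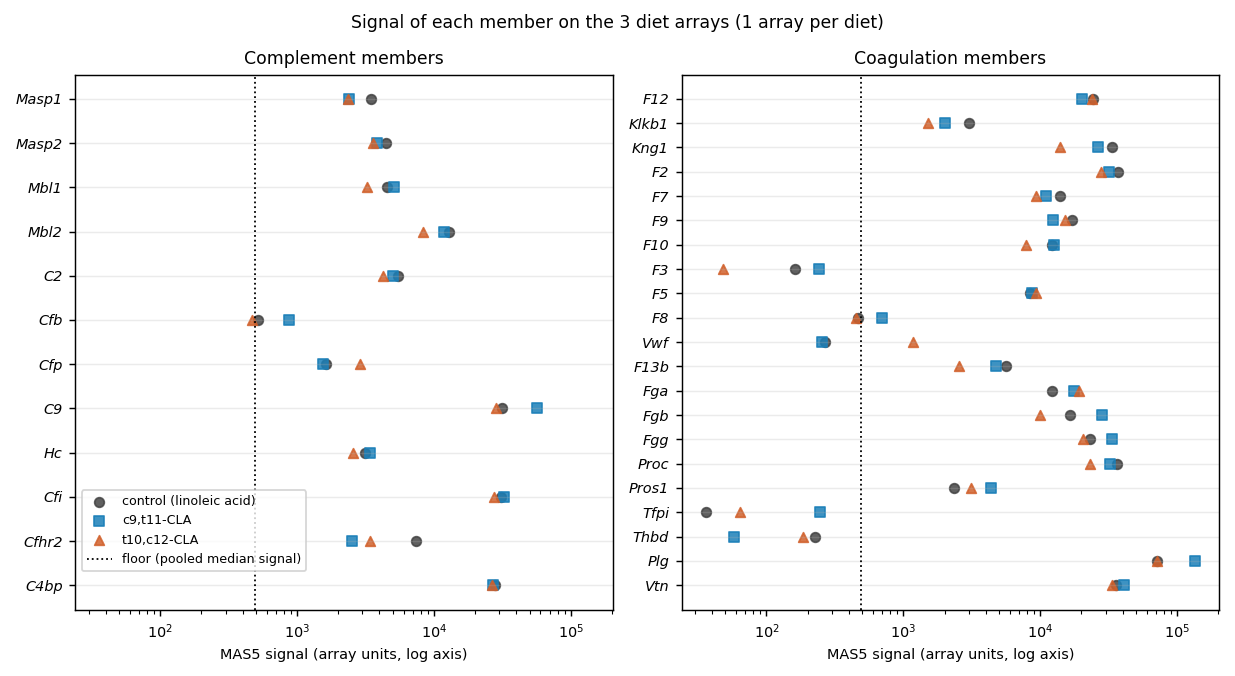
MAS5 signal (array units, log axis) of each of the 33 members by diet, 1 point per array, with the floor of 490.3 as a dotted line. Most members were far above the floor, while F3, Tfpi and Thbd lay below it on all 3 arrays and Vwf above it on the t10,c12-CLA array only.

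On the c9,t11-CLA diet the members were spread on both sides of control. Of 28 measured members, 13 were higher (52.2% of all measured genes were) and 15 lower (47.8% of all), with a median log2 difference of -0.05, against 0.02 over all 4324 measured genes. With equal medians of the arrays 9 of 29 were higher and 20 lower, but there 63% of all measured genes were lower, with a median of -0.16. The complement median was -0.05 over 12 genes and the coagulation median -0.06 over 16. Only Cfhr2 was at least 2-fold lower (1 of 28, where 2.78% of all measured genes were), and no member was 2-fold higher (2.98% of all). The members nearest to 2-fold higher were Plg, Pros1, C9 and Fgb, at log2 differences of 0.93, 0.90, 0.85 and 0.77.

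On the t10,c12-CLA diet most members were lower than on control. Of 27 measured members 22 were lower (50.9% of all measured genes were) and 5 higher (49.1%). Lower were 10 of 11 in complement and 12 of 16 in coagulation. The median log2 difference was -0.31 in complement and -0.29 in coagulation, against -0.01 over all 4391 measured genes. The coagulation median was -0.16 with a lower floor, at the 25th percentile of all signals, and with a higher one, at the 75th. Kng1, F13b, Cfhr2 and Klkb1 were at least 2-fold lower (4 of 27, where 1.87% of all measured genes were), and no member was measured 2-fold higher (2.05% of all). The count lower was 3, without Klkb1, with quantile normalization, with a pseudocount of 50 and with the higher floor. It was also 3, without Cfhr2, when probe sets marked for shared or incomplete probes were left out. Members were brighter than most genes, and among the 431 genes outside the members with a mean signal above 10000 the median was -0.09, against -0.17 for the 16 members above that signal. Of these genes 57.5% were lower, and of these members 14 of 16. With equal medians of the arrays 23 of 27 members were lower, where 58.9% of all measured genes were. With quantile normalization 20 were lower and 6 higher, where 51.6% of all were lower. There C4bp and F12, at -0.08 and -0.02 in the main reading, lay above control.

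**Figure D2:**
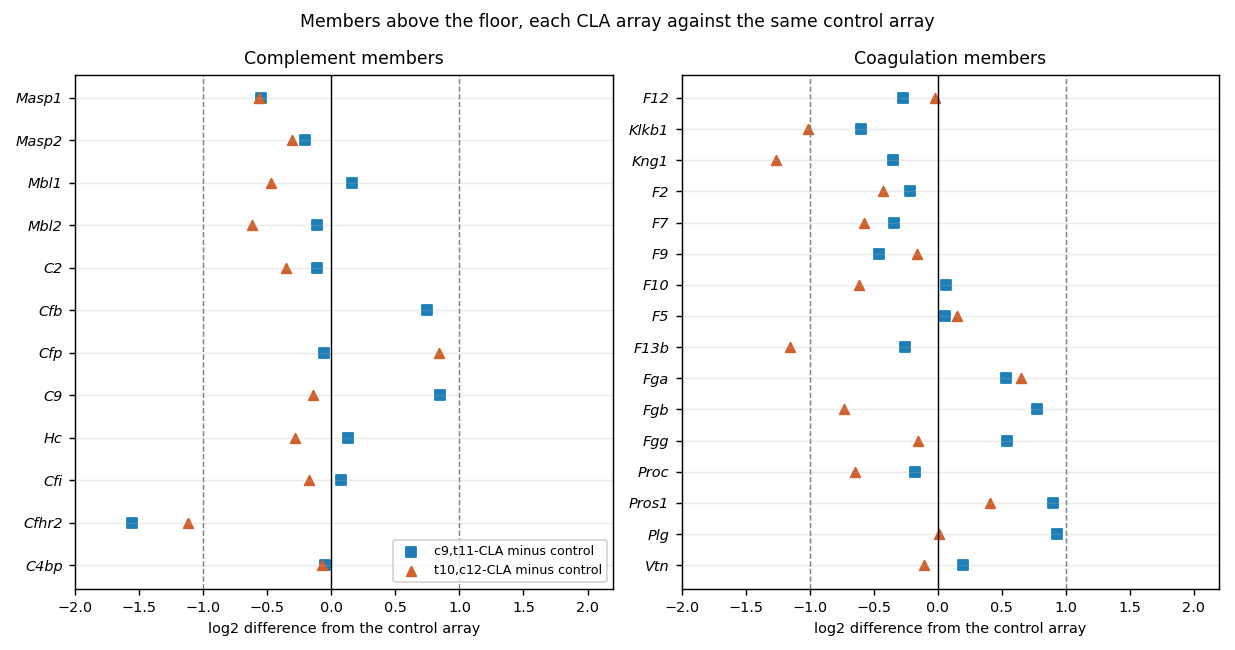
Log2 difference of each CLA array from the control array, on the x axis, for the members above the floor on both arrays, with dashed lines at 2-fold. Both sets of points use the same control array. Triangles for t10,c12-CLA lie left of 0 for 22 of 27 members, while squares for c9,t11-CLA lie on both sides, with Cfhr2 at -1.56 and Plg at 0.93.

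**Figure D3:**
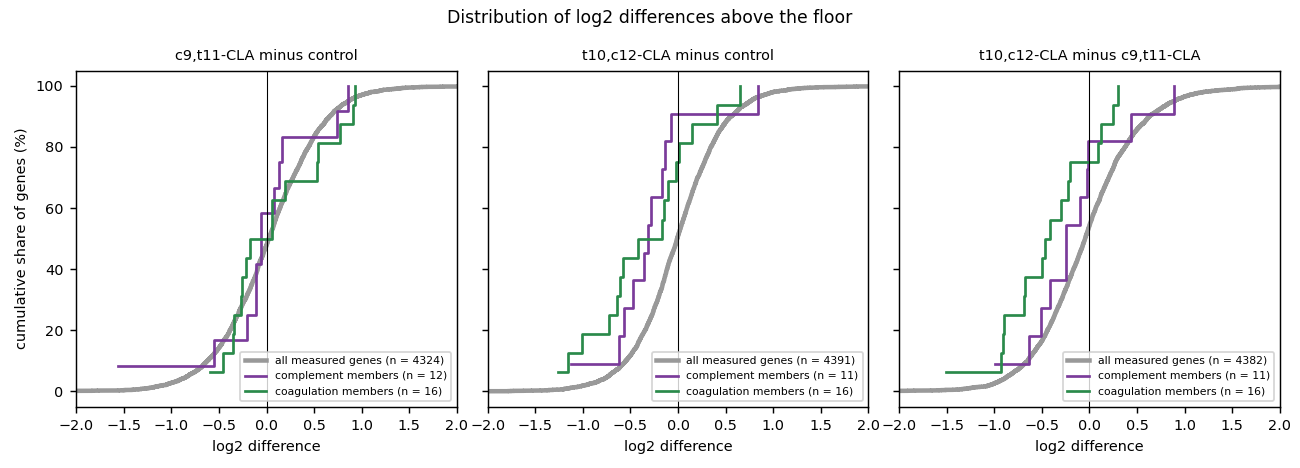
Cumulative share of genes (y axis, %) at or below each log2 difference (x axis) in the 3 comparisons, for all measured genes, the complement members and the coagulation members. In the comparison of t10,c12-CLA with control both member curves lie left of the curve of all genes over most of their length, with medians of -0.31 and -0.29, the latter -0.16 under the lower and the higher floor.

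All 4 genes of the lectin branch were lower with t10,c12-CLA than with control (50.9% of all measured genes were). Mbl1, a mannose-binding lectin of plasma, gave signals of 4534 on control, 5069 on c9,t11-CLA and 3262.5 on t10,c12-CLA. Mbl2, the other mannose-binding lectin, gave 12873, 11924 and 8366 in the same order of diets, which is kept below. Both lectins were thus lowest on t10,c12-CLA, with log2 differences from control of -0.47 and -0.62. Masp1, a protease that circulates bound to these lectins, gave 3489, 2378 and 2351.5 and was lower on both CLA arrays, by log2 differences of -0.55 and -0.57. Masp2, the protease that cleaves C4 and C2, gave 4430.4, 3836 and 3569, a log2 difference of -0.31 on t10,c12-CLA. The signals of Mbl1 on c9,t11-CLA lay 0.16 above control on the log2 scale, and 0.03 below it when the arrays were set to equal medians. All 4 differences between t10,c12-CLA and control were below 2-fold, and that of Masp2 was smaller than the yardstick of 0.40.

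C2, the protease component of the classical and lectin convertase, was read by 2 probe sets. The brighter one gave 5429, 5015 and 4235, lowest on t10,c12-CLA with a log2 difference of -0.36. The dimmer one was above the floor on c9,t11-CLA only, at 971, and pointed to at least 1.98-fold more there than on either other array. The probe sets of C2 therefore differ on the c9,t11-CLA array, and the dimmer one carries a mark for shared or incomplete probes.

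In the alternative branch, Cfp, properdin, which stabilises the convertase and is known as a product of myeloid cells, stood apart. It gave 1617 on control, 1558 on c9,t11-CLA and 2889 on t10,c12-CLA. Properdin was 1.79-fold higher on t10,c12-CLA than on control and 1.86-fold higher than on c9,t11-CLA, and by the brightest probe sets it was the only measured complement member above control there. Markers of macrophages and Kupffer cells were also higher on that array: 9 of 9 were on the array, 8 were above the floor on each diet, and Marco was below it on all. Their summed signal was 50571, 42147 and 60576. On t10,c12-CLA 7 of 8 measured markers were above control (49.1% of all measured genes were), with a median of 0.33. In a piece of liver, a different number of such cells and a different RNA content per cell cannot be told apart, and the part of these cells in the properdin signal was not tested. Cfb, factor B, the protease of the alternative convertase, lay close to the floor at 522, 874 and 466. Its other probe set gave 576, 285.5 and 812, so the probe sets order the CLA arrays in opposite ways. The former was used for its higher mean log2 signal, but it carries a mark for shared or incomplete probes. The latter is unmarked and was brighter than the former on control and t10,c12-CLA. By this unmarked probe set Cfb was 1.41-fold above control on t10,c12-CLA.

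The terminal pathway was represented by C9 and Hc, since C6, C8a and C8b were not analysed. C9, the pore-forming subunit, gave 31567 on control, 56947 on c9,t11-CLA and 28629.5 on t10,c12-CLA. It was thus high on the c9,t11-CLA array alone, 1.80-fold above control and 1.99-fold above t10,c12-CLA. Hc, the mouse C5, gave 3131, 3425 and 2567, with log2 differences from control of 0.13 and -0.29. Under equal medians of the arrays the former was -0.07.

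Among the regulators, Cfi and C4bp were nearly level across the diets. Cfi, the protease that inactivates C3b and C4b, gave 30885.5, 32566 and 27390.3. C4bp, the C4b-binding protein and cofactor of Cfi, gave 28160.3, 27137 and 26731, within a log2 difference of 0.08 of control on both CLA arrays. Cfhr2, a factor H-related protein, gave 7422, 2523 and 3406. It was highest on control, 2.94-fold lower on c9,t11-CLA and 2.18-fold lower on t10,c12-CLA. Its probe set carries the mark for probes shared within a gene family, so related transcripts may add to its signal, and its unmarked probe set was below the floor on all 3 arrays, at 47.3 to 52.4.

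The contact system was lower on t10,c12-CLA in Kng1 and Klkb1 but not in F12. Kng1, the kininogen from which bradykinin is cut, gave 33469 on control, 26229 on c9,t11-CLA and 13977 on t10,c12-CLA. Kininogen was 2.39-fold lower than control on t10,c12-CLA and 1.28-fold lower on c9,t11-CLA. Mice carry a near-identical second kininogen gene, and the probe set may read both. Klkb1, plasma prekallikrein, the protease that cuts kininogen, gave 3029.5, 2001 and 1501, in the same order as Kng1. Its difference on t10,c12-CLA was 2.02-fold, and it stood just short of 2-fold, at a log2 difference of -0.99, with quantile normalization and with a pseudocount of 50. F12, the protease that starts the contact pathway, gave 24201.5, 20041 and 23828, and its t10,c12-CLA signal was level with control at a log2 difference of -0.02.

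All 4 vitamin K-dependent procoagulant proteases were lower on t10,c12-CLA than on control (50.9% of all measured genes were). None was lower by 2-fold on its brightest probe set. F2, prothrombin, gave 37094, 31914 and 27644, a log2 difference of -0.42 on t10,c12-CLA. F10, whose active form cuts prothrombin, gave 12106, 12639 and 7910.2, level on control and c9,t11-CLA and lowest on t10,c12-CLA at -0.61. A second probe set of F10 gave 1630.2, 2201.5 and 1382, lowest on the same array. F9, whose deficiency causes haemophilia B, gave 17011.5, 12378 and 15187, and was instead lowest on c9,t11-CLA at -0.46. Its difference on t10,c12-CLA, -0.16, was smaller than the yardstick of 0.40.

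F7, the protease that binds tissue factor to start coagulation, was read differently by its probe sets. The brighter gave 13962, 10996 and 9369.7, lower on both CLA arrays at log2 differences of -0.34 and -0.58. The dimmer gave 6361, 9623 and 3071.5, higher on c9,t11-CLA at 0.60 and 2.07-fold lower on t10,c12-CLA. Both were lower on t10,c12-CLA than on control, and they differ in sign on c9,t11-CLA.

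The cofactors and the initiator were mostly at or below the floor. F5, the cofactor of factor Xa, gave 8408, 8723 and 9313, within a log2 difference of 0.15 of control. F8, the cofactor of factor IXa and known as a product of endothelial cells, gave 468, 703 and 454, above the floor on c9,t11-CLA only and at least 1.43-fold higher there. F3, tissue factor, gave 48.1 to 243. Vwf, the carrier of factor VIII in plasma and a product of endothelial cells and megakaryocytes, gave 269, 253 and 1178, above the floor on t10,c12-CLA only and at least 2.40-fold higher there than on either other array. A second probe set of Vwf was below the floor on all 3 arrays, at 58.2 to 112. Endothelial markers were all 8 on the array, with 5, 7 and 7 above the floor and summed signals of 13998, 14082 and 18304. Eng, the brightest of them, made up most of each sum, at 9197, 7762 and 10707. All 4 platelet and megakaryocyte markers on the array, of 6 listed, lay below the floor on every diet. The part of endothelial cells in the Vwf signal was not tested.

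The fibrinogen chains separated on t10,c12-CLA. Fga, the alpha chain, gave 12206 on control, 17619 on c9,t11-CLA and 19134 on t10,c12-CLA. Fgb, the beta chain, gave 16533.5, 28269.8 and 9970.0, and Fgg, the gamma chain, gave 22978, 33371 and 20697. All 3 chains were higher on c9,t11-CLA than on control (52.2% of all measured genes were), by 1.44-fold, 1.71-fold and 1.45-fold. On t10,c12-CLA Fga was 1.57-fold higher than control, Fgb 1.66-fold lower and Fgg 1.11-fold lower. These directions held with equal medians of the arrays and with quantile normalization, where Fgg on t10,c12-CLA stood at -0.04. The floor could not change them, since it only decides whether a gene is measured. The Fgg difference on t10,c12-CLA, -0.15 in the main reading, was smaller than the yardstick of 0.40. F13b, the carrier subunit of the transglutaminase that cross-links fibrin, gave 5633, 4723 and 2534. It was 2.22-fold lower on t10,c12-CLA and 1.19-fold lower on c9,t11-CLA.

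Anticoagulant and fibrinolytic members were high on c9,t11-CLA in Pros1 and Plg. Pros1, protein S, the cofactor of activated protein C, gave 2337 on control, 4373 on c9,t11-CLA and 3105 on t10,c12-CLA, 1.87-fold and 1.33-fold above control. Proc, protein C, which cuts the activated cofactors V and VIII, gave 36249, 32090.3 and 23192. It was lowest on t10,c12-CLA, 1.56-fold below control, so the protease and its cofactor differed from control in opposite directions on that diet. Tfpi, the inhibitor of the tissue factor pathway, gave 36.2 to 246, and Thbd, the thrombin receptor of endothelium, gave 58.3 to 226, all below the floor.

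Plg, plasminogen, the precursor of plasmin, gave 70778 on control, 135007 on c9,t11-CLA and 71111 on t10,c12-CLA. It was 1.91-fold higher on c9,t11-CLA than on control, and its second probe set was 1.95-fold higher, at 40132, 78258 and 36256. The brighter one carries the mark for probes shared within a gene family and the dimmer does not. The brighter Plg probe set held the highest signal of each of the 3 arrays, so quantile normalization, which sets the top signals equal, gave a difference of 0.00 for it by construction. Vtn, vitronectin, which binds plasminogen activator inhibitor and the terminal complement complex, gave 35931, 41155 and 33349, within a log2 difference of 0.20 of control.

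**Figure D4:**
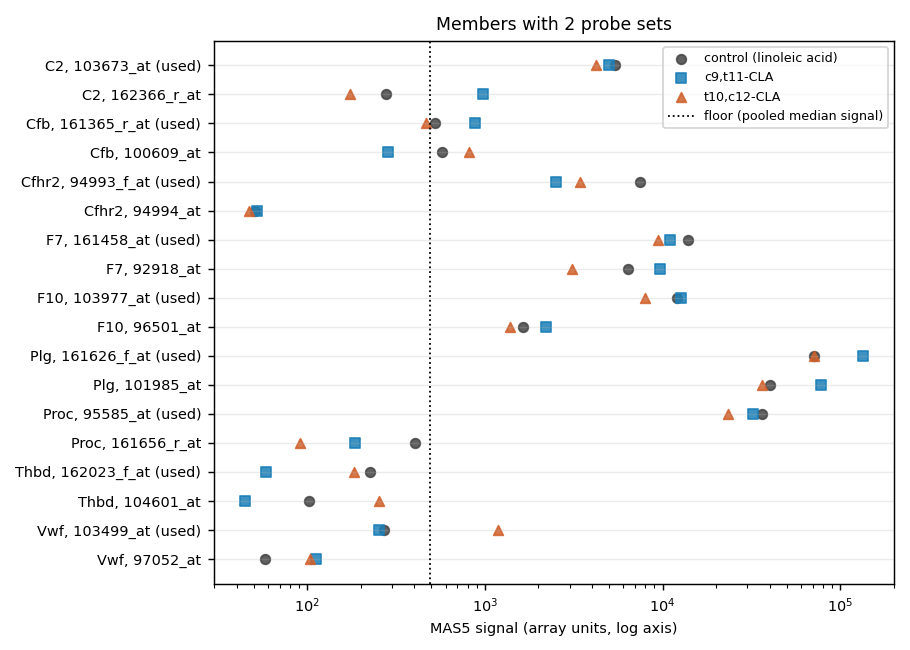
MAS5 signal (array units, log axis) of both probe sets of the 9 members that had more than 1, on the 3 arrays, with the floor of 490.3 dotted. The Plg and F10 probe sets order the arrays alike for c9,t11-CLA above t10,c12-CLA, while those of F7 differ in their order of control and c9,t11-CLA.

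The CLA isomers, which differ in the positions and geometry of their conjugated double bonds, were compared with each other at the same dose and time, as 1 pair with no interval or test. Of 27 measured members 21 were lower on t10,c12-CLA than on c9,t11-CLA (54.2% of all measured genes were) and 6 higher (45.7%). Lower were 9 of 11 in complement and 12 of 16 in coagulation. With equal medians of the arrays 18 members were lower and 9 higher, where 45.6% of all measured genes were lower. In the main reading the complement and coagulation medians were -0.24 and -0.44, against -0.05 over all 4382 measured genes. With equal medians they were -0.14 and -0.34, against 0.053 over all genes, and with quantile normalization -0.14 and -0.29, against -0.03. Of the 16 members with a mean signal above 10000, 13 were lower and 3 higher, with a median of -0.39 in the main reading. Of the 431 genes outside the members above that signal 57.1% were lower, with a median of -0.10. Fgb, at 2.84-fold, was the only member at least 2-fold lower by its brightest probe set (1 of 27, where 2.56% of all measured genes were). C9 was 1.99-fold lower, Plg 1.90-fold by its brighter and 2.16-fold by its dimmer probe set, and Kng1 and F13b 1.88-fold and 1.86-fold. F7 was 1.17-fold lower by its brighter and 3.13-fold lower by its dimmer probe set. No member was measured 2-fold higher on t10,c12-CLA (3.47% of all). Cfp had the highest difference at 0.89, followed by Cfhr2 at 0.43 and F9 at 0.30.

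Values of the c9,t11-CLA array enter both its comparison with control and the comparison of the isomers. The array had the highest single signal, the Plg signal of 135007, and its summed hepatocyte markers stood at 437642, against 270791 on control and 248171 on t10,c12-CLA, with all 8 markers on the array, of 9 listed, above the floor on each diet. Against control 6 of 8 hepatocyte markers were higher on c9,t11-CLA (52.2% of all measured genes were) and 2 lower. Alb stood at 1.83 and Apoa2 at 1.43, but Ttr at -0.94 and Apoh at -0.07. On t10,c12-CLA 4 of the 8 markers were higher (49.1% of all) and 4 lower. Between the isomers 7 of 8 hepatocyte markers were lower on t10,c12-CLA (54.2% of all measured genes were) and 1 higher. Their median log2 difference was -0.71, against -0.30 over the 27 measured members. For beta-actin the ratio of 3′ to 5′ signals, which is higher in degraded RNA, was 1.40, 1.89 and 1.35. For Gapdh it was 1.06, 0.98 and 0.78. The part of these differences in the member values was not tested. The comparison of t10,c12-CLA with control does not use that array.

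Other genes of complement, from a list of 20 of which 17 were on the array, lay on both sides of control. Against control on t10,c12-CLA, 7 of 13 measured genes were higher (49.1% of all measured genes were) and 6 lower. On c9,t11-CLA 7 of 12 were higher (52.2% of all) and 5 lower. None was past 2-fold on either diet. The subunits of C1q, the recognition molecule of the classical pathway and a product of macrophages, were higher on t10,c12-CLA, with C1qc at 12400.3, 11141 and 23148, C1qa at 0.46 and C1qb at 0.27. As with Cfp, the macrophage markers above were higher on the same array. Serping1, the inhibitor of C1 and of plasma kallikrein, gave 43636, 58867 and 32061, highest on c9,t11-CLA and lowest on t10,c12-CLA. Clu, clusterin, and C8g, a subunit of C8, followed the same order, at 27430.2, 39046 and 22659 and at 47849, 60770.1 and 42055. Cd59a, which blocks the terminal pore, was higher on both CLA arrays, at 0.78 and 0.98.

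Other genes of coagulation, 24 listed and 18 on the array, had 12 measured on each CLA diet. On t10,c12-CLA 1 was 2-fold lower (1.87% of all measured genes were) and 2 were 2-fold higher (2.05% of all). On c9,t11-CLA none was past 2-fold (2.78% of all were lower and 2.98% higher). Serpinf2, antiplasmin, gave 30416, 24029 and 12285, a log2 difference of -1.31 on t10,c12-CLA. The thrombin receptor F2r gave 1569, 1659 and 3259, and Anxa5, annexin A5, which binds exposed phosphatidylserine, gave 1465, 1216.5 and 5306, both high on t10,c12-CLA alone. Serpinc1, antithrombin, gave 45450.1, 60005 and 43486, and Serpind1, heparin cofactor II, gave 30556, 39297 and 19555. Of the proteins that serve vitamin K-dependent carboxylation, Vkorc1, which recycles vitamin K, stood at -0.57 on t10,c12-CLA and Ggcx, the carboxylase, at 0.60.

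**Figure D5:**
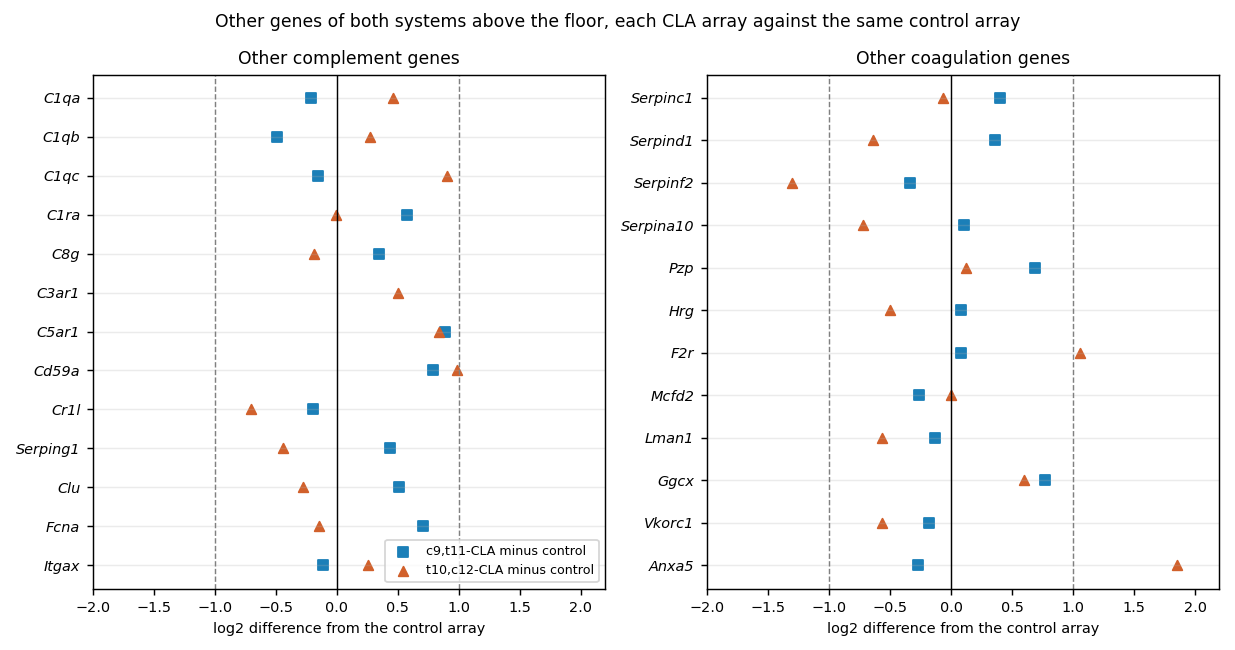
Log2 difference of each CLA array from the same control array (x axis) for the other complement and coagulation genes above the floor, with dashed lines at 2-fold. On t10,c12-CLA Serpinf2 lies at -1.31 and Anxa5 at 1.86, and the 3 C1q genes lie right of 0.

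Neutrophil markers, 6 of 6 on the array, had summed signals of 2667, 4183 and 2183, with 2, 5 and 2 above the floor. Adipocyte markers, 5 of 6, had sums of 3245.5, 3982 and 3607.5, with Adipoq and Retn below the floor on every diet. Lep made up most of the control and c9,t11-CLA sums, at 2488, 2886 and 1414, and was lowest on t10,c12-CLA. Fabp4, at 373, 529 and 798, and Cidec, at 43.6, 38.8 and 905, were highest on that array. Stellate cell markers, 5 of 6, had sums of 12391, 14085 and 25083. Bgn, biglycan, made up most of each sum, at 9042.5, 11403.5 and 20433.7. Col1a1 gave 1442.5, 1496 and 2511, while Acta2 was level on control and t10,c12-CLA, at 512 and 508, and Des was below the floor on t10,c12-CLA only, at 699, 768 and 352. Their part in the member values was not tested.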

How the data were processed

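Per the labels, biotinylated cRNA from 8 µg of total liver RNA was hybridised to expression arrays, 1 per diet. The authors deposited an intensity per probe set, the MAS5 signal, per the submitters' processing notes; no version is stated there. The signals were used without further scaling.

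Of 12488 probe sets, 10833 had 1 gene symbol, 396 several and 1193 none in the annotation used, and 66 were array controls. Of the 10833, 10817 matched a RefSeq gene (GRCm38.p6) by identifier, and no symbol changed. Only probe sets with 1 symbol were used, and a gene was read by its probe set of highest mean log2 signal. It counted as measured in a comparison if both arrays lay above the floor. With only 1 array above it, a fold was given as a bound, from the brighter signal over the floor. Differences are log2 ratios of signals, counted from 2-fold. No test was possible with 1 array per diet. The counting of differences was checked on simulated data.

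The members, roles, gene lists, motifs and the rule for named genes were chosen with earlier results of these data known. Under that rule every member on the array is named. Members past 2-fold, and those of fibrinogen, the terminal and the lectin pathways, are given with all 3 signals. Genes outside the members come only from the listed pathway and cell type genes, and those named were chosen after their values were seen. Calculations used Python 3.11.15 with numpy 2.4.6 and pandas 2.3.3, and plots matplotlib 3.10.9. The 7 alternatives are given in the closing section.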

Additional observations from a re-analysis of the deposited data

How the results depend on the processing

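The alternatives were equal array medians, quantile normalization, a lower floor (25th percentile of all signals) and a higher one (75th), a pseudocount of 50, averaging a gene's measured probe sets, and dropping those marked for shared or incomplete probes. For c9,t11-CLA against control the coagulation median changed sign and the complement median was below 0 under all 7. The coagulation median, -0.06, was 0.053 with the lower floor and 0.090 with the mean over probe sets, and the complement median, -0.05, was -0.25 with equal medians, which moved all genes from 0.02 to -0.16. Without marked probe sets, Cfhr2 was not measured and 0 members were 2-fold lower. For t10,c12-CLA against control, the coagulation median was -0.16 under both the lower and the higher floor, and the lower floor added 1 gene 2-fold higher, Vwf. Between the isomers, the complement median was -0.14 with equal medians and -0.14 with quantile normalization, and the coagulation median was -0.34 and -0.29. There the lower floor added 1 gene 2-fold higher, again Vwf, and 2 members, Fgb and Plg, were 2-fold lower with the mean over probe sets or without marked ones. The remaining 70 of 84 alternative values of medians and counts kept their sign and moved by at most 0.1 or 1.5 times. No paired analysis was possible because each diet had 1 array.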

Other observations

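Genes of liver transcription factors and of IL-6 signalling, which are known to act on many of these promoters, were read from a list of 17, of which 15 were on the array. On c9,t11-CLA 9 of 13 measured genes were higher than control (52.2% of all measured genes were) and 4 lower, with a median of 0.23. Il6ra, a receptor subunit for IL-6, gave 1539.9 on control, 3864 on c9,t11-CLA and 1825 on t10,c12-CLA, high on c9,t11-CLA alone. Socs3, a feedback inhibitor of the same pathway, gave 345, 806 and 438, above the floor on c9,t11-CLA only. Its probe set carries the mark for probes shared within a gene family. Il6st, another gene of the IL-6 path on the list, went the other way. It gave 2155, 1824 and 1800.5, at log2 differences from control of -0.24 and -0.26. Cebpb and Cebpd, factors of the acute phase response, were higher on both CLA arrays, at 0.99 and 0.69 on c9,t11-CLA and 0.68 and 0.82 on t10,c12-CLA. Stat3, the factor activated by IL-6, stood at 0.31 and -0.11.

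On t10,c12-CLA 6 of 12 measured genes of this list were higher than control (49.1% of all measured genes were) and 6 lower, with a median of -0.05. The forkhead factors Foxa2 and Foxa3 stood at -0.89 and -0.98, and Onecut1, another hepatocyte factor, at -0.62. Foxa1 was above the floor on control and c9,t11-CLA, at 693 and 1107.5, and below it on t10,c12-CLA, at 313. Hnf4a stood at 0.93 on c9,t11-CLA and 0.42 on t10,c12-CLA, and Cebpa at 0.04 and -0.10. No factor activity was measured.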
